A study of Mus musculus with 21 samples.

Results

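The 9 genes described here encode the mouse sensors of double-stranded RNA and the proteins that work beside them: Ddx58, Ifih1, Dhx58, Mavs, Zcchc3, Tlr3, Eif2ak2, Adar and Oasl1. They were taken by gene symbol, with no threshold on a measured value, and each symbol matched 1 of the 54532 genes listed. Their messenger RNA was measured in 7 lines of mouse glioma stem-like cells, which are brain tumour cells kept in a stem-cell medium, each line established from a genetically engineered mouse model. Lines PIC144-1, PIC144-3, PIC496-3 and PIC496-4 are labelled IDH1 mutant, and lines PC134-0, PC308-1 and PC326-1 are labelled IDH1 WT. All 7 lines grew untreated on low-adherence plates at 5% oxygen with EGF and bFGF at 20 ng/mL each, and 3 libraries were made per line, 12 of IDH1 mutant and 9 of IDH1 WT cells. The alleles, the promoter or Cre behind the models, the strain, the age and the number of animals were not stated in the labels read here, and neither was whether the PIC144 lines, or the PIC496 lines, share an animal.

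Double-stranded RNA in a cell is a mark of viral replication, and also arises from the cell's own repeats and transposable elements. In the cytosol it is bound by the RIG-I-like receptors, which signal through the mitochondrial adaptor MAVS to the kinase TBK1 and the factor IRF3 and so to type I interferon. In endosomes it is bound by TLR3, which signals through the adaptor TICAM1. Other proteins act on the RNA or on translation: PKR stops translation when it meets double-stranded RNA, and ADAR edits adenosine to inosine in it and so keeps the cell's own RNA from being sensed. Several of these genes are themselves induced by interferon, through a promoter element bound by the complex ISGF3.

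The libraries held 15011668 to 21966351 fragments assigned to genes. Levels are given in FPKM, a length-scaled fragment rate, which can be set side by side between genes. Each bulk value averages over the cells of a culture, so fewer cells that express a gene and less RNA per cell cannot be told apart. Of 10 markers of neural and glioma stem-like cells, 9 reached 1 FPKM in a line, summing to 1577 to 2658 FPKM per IDH1 mutant line and 1667 to 2146 FPKM per IDH1 WT line. By mean, Vim was the most abundant of them in IDH1 mutant lines (543 FPKM) and Olig1 in IDH1 WT lines (483 FPKM). Of 11 macrophage and microglia markers, Tyrobp, C1qa and C1qb were at 0 in every library. The list summed to 0.801 to 2.57 FPKM per IDH1 mutant line and 0.921 to 6.43 FPKM per IDH1 WT line. The sum was highest in PC134-0, mostly from Cd68, with P2ry12 at 1.36 FPKM and Tmem119 at 0.0163 FPKM there. The 6 endothelial markers summed to 0.0869 to 0.369 FPKM in IDH1 mutant and 0.335 to 0.844 FPKM in IDH1 WT lines, with Cldn5 at 0 and Kdr the most abundant. The 6 fibroblast and pericyte markers summed to 0.542 to 11.2 FPKM in IDH1 mutant lines, where Dcn reached 10.4 FPKM in PIC144-1, and to 0.387 to 1.04 FPKM in IDH1 WT lines. Genes of the sex chromosomes also ran with the groups. The Y-linked gene Ddx3y measured 0 FPKM in both PIC496 lines, 0.580 and 1.39 FPKM in PIC144-1 and PIC144-3, and 10.2 to 29.1 FPKM across PC134-0, PC308-1 and PC326-1. Xist, which coats an inactive X, measured 8.11 and 15.6 FPKM in PIC496-3 and PIC496-4 and at most 0.0139 FPKM in any other line. What goes with these genes and what goes with genotype, or with the PIC496 lines, cannot be told apart in the comparisons below.

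Promoters were read from RefSeq (build GRCm38.p6) as the 300 bases from 250 before to 50 after each transcription start. 8 of the 9 genes matched, with 10 promoters in all, since Adar has 3. They were searched on both strands for the core of the interferon-stimulated response element, which is GAAA followed after any 2 bases by another GAAA, and for the gamma-activated site, TTCNNNGAA. These patterns cannot match the same bases in full. The response element core was found in the promoters of Ddx58, Ifih1 and Eif2ak2 and in 3.44% of all 32851 promoters of this length. The gamma-activated site was found in Zcchc3, Eif2ak2 and 1 of the Adar promoters, and in 8.3% of all promoters. Shown are the 3 promoters that hold the response element core, with the match in capitals (in Ddx58 it lies on the reverse strand), and that of Zcchc3, the gene with the largest difference between the genotypes, which holds none. They are written in the direction of transcription and lie at chr4:40239776-40240075, chr2:62646206-62646505, chr17:78882523-78882822 and chr2:152414995-152415294, in the order printed and all on the minus strand. The end of each lies, in this direction, within a GENCODE transcript of its gene.
Ddx58: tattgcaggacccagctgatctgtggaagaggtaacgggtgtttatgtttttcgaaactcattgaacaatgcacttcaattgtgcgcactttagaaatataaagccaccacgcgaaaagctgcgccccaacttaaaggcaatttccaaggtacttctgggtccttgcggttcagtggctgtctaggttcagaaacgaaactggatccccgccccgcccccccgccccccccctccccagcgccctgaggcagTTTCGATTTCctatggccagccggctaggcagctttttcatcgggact
Ifih1: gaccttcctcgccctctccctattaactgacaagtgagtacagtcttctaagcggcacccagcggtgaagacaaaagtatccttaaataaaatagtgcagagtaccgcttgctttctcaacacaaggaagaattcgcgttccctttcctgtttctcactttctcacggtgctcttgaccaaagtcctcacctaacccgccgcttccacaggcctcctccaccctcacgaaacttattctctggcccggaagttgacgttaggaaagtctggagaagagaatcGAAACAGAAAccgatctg
Eif2ak2: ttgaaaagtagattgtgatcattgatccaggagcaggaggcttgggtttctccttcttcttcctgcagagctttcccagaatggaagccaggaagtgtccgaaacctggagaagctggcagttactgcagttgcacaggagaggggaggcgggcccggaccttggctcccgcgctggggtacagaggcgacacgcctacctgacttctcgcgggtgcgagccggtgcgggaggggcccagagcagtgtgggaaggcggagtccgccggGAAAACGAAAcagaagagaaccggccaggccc
Zcchc3: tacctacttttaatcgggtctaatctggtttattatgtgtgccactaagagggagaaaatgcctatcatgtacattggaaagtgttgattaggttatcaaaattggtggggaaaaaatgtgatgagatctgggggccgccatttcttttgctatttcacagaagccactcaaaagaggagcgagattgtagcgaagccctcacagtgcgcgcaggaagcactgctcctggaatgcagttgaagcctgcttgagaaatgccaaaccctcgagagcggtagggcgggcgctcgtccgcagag
A match describes the letters only, and no binding was measured here. The 3 genes with the core did not share a level: Eif2ak2 stood at 4.11 FPKM or more in each line mean, and Ifih1 at 0.801 FPKM or less.

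None of the sensors passed the genotype comparison after adjustment over all genes, but 4 of the 9 had every IDH1 mutant line below every IDH1 WT line: Zcchc3, Oasl1, Mavs and Tlr3. No member lay the other way. Among all genes tested, 6.43% had all IDH1 mutant line means below all IDH1 WT line means and 6.82% had them all above, 13.3% in either direction. Among all genes with any signal, 4.99% had them below. The comparison was fitted with limma on log2(FPKM + 0.5) of the line means, over the 13379 genes with at least 0.5 FPKM in 3 or more lines, so every log2 difference below is on that scale and understates the change of low genes. 7 members passed this filter, and Ifih1 and Dhx58 did not. Over all genes tested, 16 passed at a Benjamini-Hochberg adjusted p under 0.05 (0.12%), 3 higher and 13 lower in IDH1 mutant lines, and none of them was a member. By unadjusted limma p, 4 members lay under 0.05, all lower in IDH1 mutant lines, against 6.7% of all genes in that direction and 12.8% in either. The other tool, limma voom on recovered fragments, called 0 genes, and 4 members were under an unadjusted p of 0.05. The median log2 difference of the 7 members tested was -0.70, and that of all genes tested was 0.0072. Oasl1 entered the fit only through its IDH1 WT lines, so it had to differ, and counts over the members tested are given as a description.

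**Figure D1:**
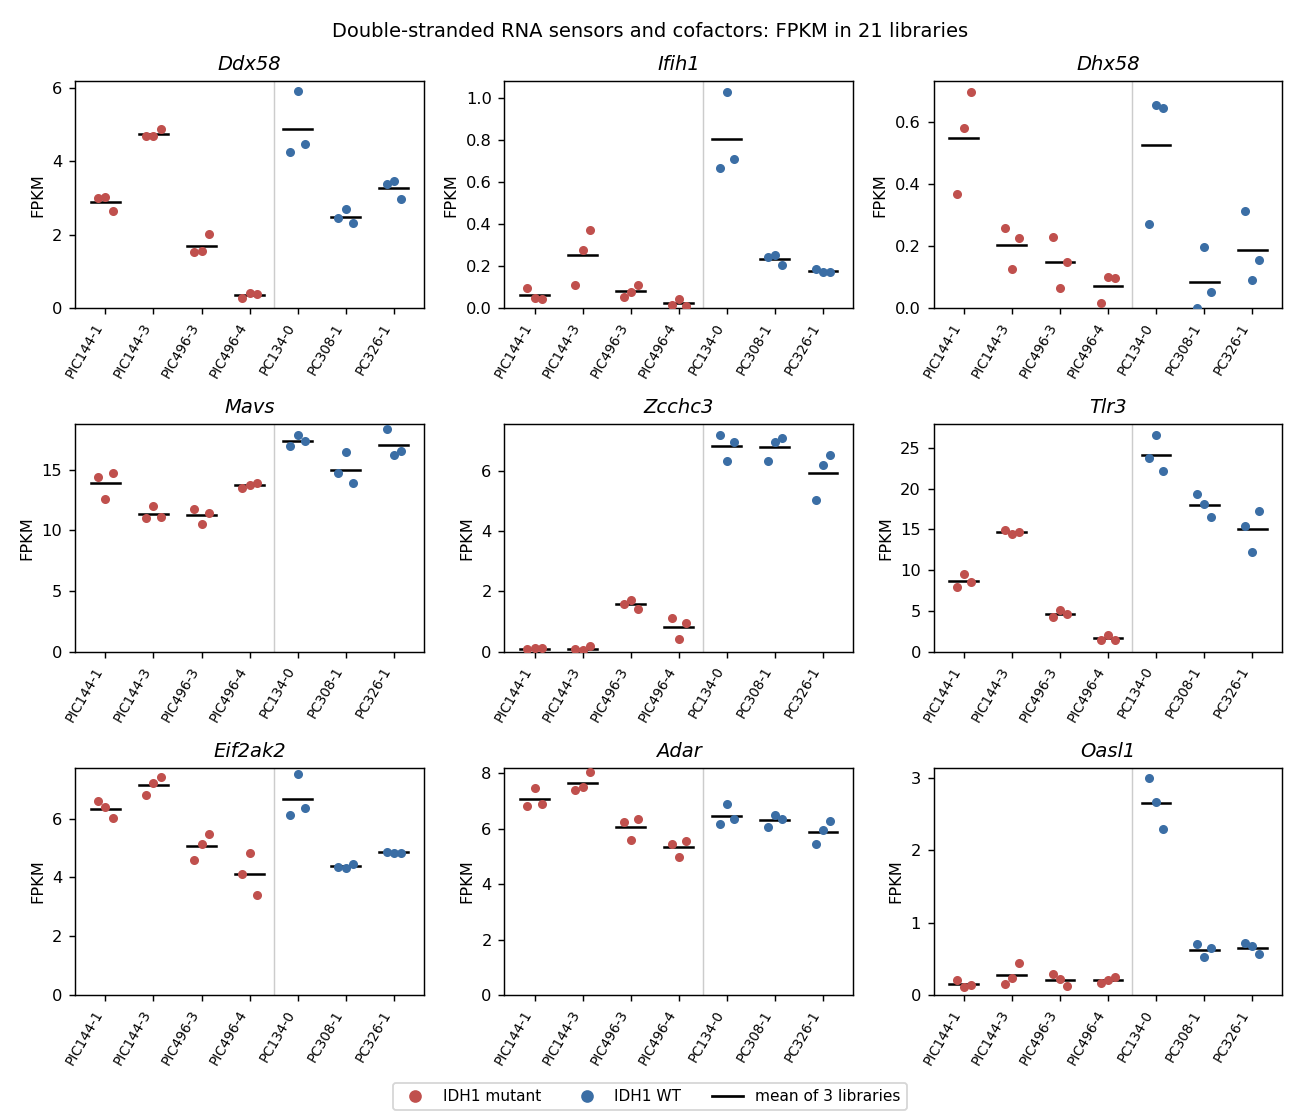
FPKM (vertical axes, linear, from 0) of each of the 9 genes in the 21 libraries, grouped by cell line along the horizontal axis. Points are libraries, red for IDH1 mutant and blue for IDH1 WT, and black bars are means of 3 libraries. Zcchc3 sits at 1.71 FPKM or less in every IDH1 mutant library and at 5.01 FPKM or more in every IDH1 WT library.

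Ddx58 encodes RIG-I, the receptor for short double-stranded RNA with a 5′ triphosphate end (ENSMUSG00000040296, GRCm38 chromosome 4 from 40203773 to 40239828, minus strand). Its 12 IDH1 mutant libraries ran from 0.283 through a median of 2.33 to 4.88 FPKM, and its 9 IDH1 WT libraries from 2.32 through 3.40 to 5.91 FPKM. The ranges overlapped widely, because PIC144-3 (4.76 ± 0.0994 FPKM, SD, n = 3 libraries) stood as high as PC134-0 (4.89 ± 0.892), while PIC496-4 (0.368 ± 0.0753) stood far below every other line. The mean of line means was 2.43 ± 1.86 FPKM in IDH1 mutant lines (SD, n = 4) and 3.56 ± 1.22 in IDH1 WT lines (n = 3). The log2 difference of -0.70 (SE 0.573, limma 95% interval -2.03 to 0.62, adjusted p = 0.605) was within the spread between lines, and exact permutation of the 7 lines (35 splits, two-sided) gave p = 0.429. Without PIC496-4 the difference was -0.21, and without both PIC496 lines, which are also the lines with Xist, it turned to 0.10.

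Ifih1 encodes MDA5, the receptor for long double-stranded RNA (ENSMUSG00000026896, chromosome 2 from 62595798 to 62646255, minus strand). It was low in most lines, with 0.0133 to 0.370 FPKM in the IDH1 mutant libraries (median 0.0654) and 0.172 to 1.03 FPKM in the IDH1 WT libraries (median 0.245). PC134-0 was the exception at 0.801 ± 0.198 FPKM, from 332 fragments in 3 libraries, and PIC496-4 had 11 fragments in 3 libraries. The genotypes overlapped, since PIC144-3 at 0.253 FPKM lay above PC308-1 at 0.235 and PC326-1 at 0.177. The means of 0.106 ± 0.101 (n = 4) and 0.405 ± 0.345 FPKM (n = 3) did not differ beyond the spread between lines (exact permutation p = 0.114).

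Dhx58 encodes LGP2, a receptor of the same family without the signalling domain, which modulates the other receptors (ENSMUSG00000017830, chromosome 11 from 100694884 to 100704271, minus strand). It was low throughout, at 0.0185 to 0.697 FPKM in IDH1 mutant libraries (median 0.189) and 0 to 0.656 FPKM in IDH1 WT libraries (median 0.199). 1 PC308-1 library had 0 fragments, which allows up to 3 fragments or 0.0509 FPKM. PIC144-1 and PC134-0 were the high lines of their genotypes, at 0.549 ± 0.167 and 0.524 ± 0.219 FPKM. The means were 0.244 ± 0.211 FPKM (n = 4) and 0.265 ± 0.230 FPKM (n = 3), and the exact permutation test gave p = 0.857. An antisense gene, Dhx58os, overlaps it and reached at most 0.0872 FPKM in a line.

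Zcchc3 encodes a zinc finger protein that binds RNA and DNA and assists RIG-I and MDA5 in taking up their ligand. It is a short gene (ENSMUSG00000074682, chromosome 2 from 152411955 to 152415027, minus strand). In the IDH1 WT libraries it measured 7.18, 6.33 and 6.95 FPKM in PC134-0, 6.32, 6.94 and 7.08 in PC308-1, and 5.01, 6.20 and 6.51 in PC326-1. In the IDH1 mutant libraries it measured 0.0785, 0.113 and 0.120 FPKM in PIC144-1, 0.0738, 0.0582 and 0.182 in PIC144-3, 1.59, 1.71 and 1.42 in PIC496-3, and 1.12, 0.411 and 0.953 in PIC496-4. No IDH1 mutant library came near the lowest IDH1 WT library, and the gap was wider for the PIC144 lines than for the PIC496 lines. The fragments behind these values were 16 and 19 over 3 libraries in PIC144-1 and PIC144-3, 249 and 134 in PIC496-3 and PIC496-4, and 890 to 1095 in the IDH1 WT lines.

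The line means of Zcchc3 averaged 0.652 ± 0.702 FPKM in IDH1 mutant lines (n = 4) and 6.50 ± 0.517 FPKM in IDH1 WT lines (n = 3), a ratio of 9.97. The log2 difference was -2.80 (SE 0.449, limma 95% interval -3.84 to -1.76), which is a level 6.98 times higher in IDH1 WT lines on that scale (3.39 to 14.4). The unadjusted limma p was 0.000286 and the adjusted p 0.111, so the difference did not pass over all genes, and the exact permutation p of 0.0286 is the smallest that 4 against 3 lines can give. With both PIC496 lines left out, the log2 difference was -3.53, with a limma adjusted p of 0.0240. In that fit both PIC144 lines lay under the filter, so Zcchc3 entered only through its IDH1 WT lines and had to differ. That p-value is therefore a description and no test of genotype. Over the alternatives tried, the log2 difference ranged from -4.20 to -2.28.

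Mavs encodes the adaptor on the outer mitochondrial membrane that both RIG-I and MDA5 engage (ENSMUSG00000037523, chromosome 2 from 131234063 to 131248025, plus strand). It was well expressed everywhere, at 10.6 to 14.7 FPKM in IDH1 mutant libraries (median 12.3) and 13.9 to 18.3 FPKM in IDH1 WT libraries (median 16.5). Single libraries overlapped, but the line means did not: the highest IDH1 mutant line, PIC144-1, stood at 13.9 FPKM and the lowest IDH1 WT line, PC308-1, at 15.01. The means were 12.5 ± 1.44 FPKM (n = 4) and 16.5 ± 1.28 FPKM (n = 3). The log2 difference of -0.38 was small (SE 0.137, interval -0.70 to -0.07, limma unadjusted p = 0.0241, adjusted p = 0.349, exact permutation p = 0.0286).

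Tlr3 encodes the endosomal receptor for double-stranded RNA (ENSMUSG00000031639, chromosome 8 from 45395665 to 45411080, minus strand). In the IDH1 WT libraries it measured 23.8, 26.6 and 22.1 FPKM in PC134-0, 19.4, 18.1 and 16.5 in PC308-1, and 15.5, 12.2 and 17.3 in PC326-1. In the IDH1 mutant libraries it measured 7.94, 9.58 and 8.54 FPKM in PIC144-1, 14.9, 14.5 and 14.6 in PIC144-3, 4.21, 5.13 and 4.65 in PIC496-3, and 1.41, 2.06 and 1.46 in PIC496-4. PIC144-3 reached the level of PC326-1 (14.67 against 14.997 FPKM in the line means), so the lines met at the border, whereas PIC496-4 was 14.7 times below PC134-0. At these levels Tlr3 was more abundant per length than the RIG-I-like receptor genes Ddx58, Ifih1 and Dhx58 in each line. Eif2ak2, the gene of PKR, stood above Tlr3 in PIC496-3 (5.06 against 4.66 FPKM) and PIC496-4 (4.11 against 1.64 FPKM), and below it in the other lines.

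The means of Tlr3 were 7.42 ± 5.63 FPKM in IDH1 mutant lines (n = 4) and 19.1 ± 4.68 FPKM in IDH1 WT lines (n = 3). The log2 difference was -1.62 (SE 0.602, interval -3.01 to -0.22, limma unadjusted p = 0.0287, adjusted p = 0.362), and the exact permutation p was 0.0571. Without both PIC496 lines it was -0.70, and without PIC496-4 alone -1.10.

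Eif2ak2 encodes PKR, the kinase that phosphorylates eIF2alpha when it binds double-stranded RNA (ENSMUSG00000024079, chromosome 17 from 78852564 to 78882573, minus strand). Its libraries ran from 3.39 through a median of 5.75 to 7.43 FPKM in IDH1 mutant lines and from 4.31 through 4.85 to 7.53 FPKM in IDH1 WT lines. High and low lines occurred in both genotypes: PIC144-3 at 7.15 and PC134-0 at 6.67 FPKM headed the order, and PC308-1 at 4.37 and PIC496-4 at 4.11 closed it. The means of 5.67 ± 1.35 (n = 4) and 5.30 ± 1.21 FPKM (n = 3) gave a log2 difference of 0.08 with an interval of -0.44 to 0.60 (limma adjusted p = 0.894, exact permutation p = 0.771).

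Adar encodes ADAR1, the editing enzyme (ENSMUSG00000027951, chromosome 3 from 89715022 to 89753446, plus strand). It varied least of the 9 genes, from 4.99 through a median of 6.57 to 8.04 FPKM in IDH1 mutant libraries and from 5.44 through 6.25 to 6.87 FPKM in IDH1 WT libraries. The 3 IDH1 WT lines lay inside the range of the 4 IDH1 mutant lines. The means were 6.52 ± 1.03 (n = 4) and 6.21 ± 0.295 FPKM (n = 3), the log2 difference was 0.05 with an interval of -0.31 to 0.42, and neither limma (adjusted p = 0.902) nor the exact permutation test (p = 0.686) separated the genotypes. Its 3′ end overlaps Chrnb2 on the other strand by 7252 bases, and Chrnb2 was listed at 0.170 to 0.346 FPKM.

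Oasl1 encodes a member of the oligoadenylate synthetase family without synthetase activity, known for restraining the translation of Irf7 (ENSMUSG00000041827, chromosome 5 from 114923240 to 114937915, plus strand). The IDH1 mutant libraries held 0.111 to 0.446 FPKM (median 0.209) and the IDH1 WT libraries 0.521 to 2.99 FPKM (median 0.702). No library overlapped between the genotypes, and PC134-0 stood apart from the other IDH1 WT lines, with 2.99, 2.66 and 2.29 FPKM against 0.521 to 0.721 FPKM in the other 6 IDH1 WT libraries. Because Oasl1 passed the filter only through its IDH1 WT lines, its line means had to separate. The p-values given for it are therefore a description and no test of genotype. The means were 0.211 ± 0.050 FPKM (n = 4) and 1.31 ± 1.16 FPKM (n = 3), and the log2 difference was -1.17 (SE 0.375, interval -2.04 to -0.30, limma unadjusted p = 0.0149, adjusted p = 0.320, exact permutation p = 0.0286). With PC134-0 left out and the same genes tested, it was -0.68. The summed macrophage and microglia markers were also highest in that line (6.43 FPKM, of which Cd68 5.05, with Tyrobp, C1qa and C1qb at 0). P2ry12, a microglia marker, measured 1.36 FPKM there, 0.277 and 0.226 FPKM in PC308-1 and PC326-1, and 0.0230 to 0.160 FPKM in IDH1 mutant lines. Its line means did not overlap between the genotypes either. Tmem119, of the same list, ran the other way. It measured 0.0163 FPKM in PC134-0, 0 in PC308-1 and PC326-1, and 0.0244 to 0.131 FPKM in IDH1 mutant lines. In PC134-0, Aif1, Itgam and Cx3cr1 were at 0 FPKM, and Ptprc and Csf1r at 0.00395 and 0.00403 FPKM. The part of these markers in the levels of Oasl1 and Ifih1 in PC134-0 was not tested.

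**Figure D2:**
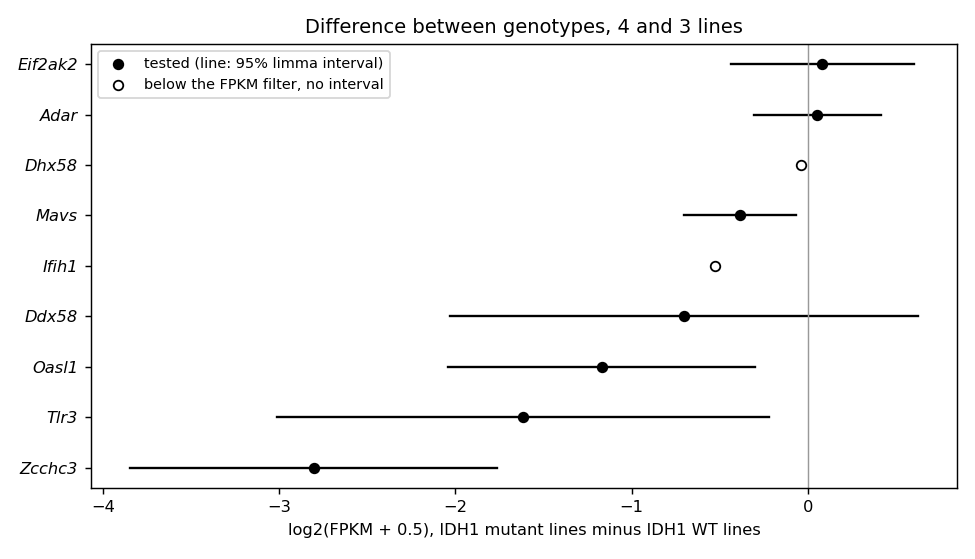
Difference of log2(FPKM + 0.5) between the 4 IDH1 mutant and the 3 IDH1 WT lines (horizontal axis) for each gene (vertical axis). Filled points with lines are limma estimates with 95% intervals, and open points are genes below the filter, with no interval. Zcchc3 lies farthest from 0 at -2.80, and the intervals of Ddx58, Eif2ak2 and Adar include 0.

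Lines of the same genotype differed from each other as well. F tests over the libraries, in which the 3 libraries of a line stand for its replicates and may differ only technically, separated the 4 IDH1 mutant lines for 6 of the 7 members tested, against 80.7% of all genes. Oasl1 was the one not separated (limma adjusted p = 0.513). Among the 3 IDH1 WT lines 5 of 7 differed, against 61.4% of all genes, and Zcchc3 (adjusted p = 0.442) and Adar (adjusted p = 0.249) were the ones not separated. The range from lowest to highest line was 65.7-fold for Zcchc3, 32.0-fold for Ifih1, 17.2-fold for Oasl1, 14.7-fold for Tlr3 and 13.3-fold for Ddx58. It was 7.54-fold for Dhx58 and only 1.74-fold, 1.54-fold and 1.43-fold for Eif2ak2, Mavs and Adar. A range of at least 10-fold occurred in 10% of all genes tested.

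4 members followed the same order among the IDH1 mutant lines: Ddx58, Tlr3, Eif2ak2 and Adar all ran from PIC144-3 down through PIC144-1 and PIC496-3 to PIC496-4. This order of means was found in 5.53% of all genes tested. Neighbouring lines in the order of a gene's means were set against each other by limma over the libraries, adjusted over all genes tested, and 19.2% to 65.4% of all genes passed in the same pairs of lines. The order came from the same values, so these p-values mark only which neighbours stood apart beyond the spread of libraries. For Tlr3 each step was separated (adjusted p = 5.63e-05, 1.46e-05 and 6.68e-08). Ddx58 fell from 1.71 to 0.368 FPKM between PIC496-3 and PIC496-4 (adjusted p = 8.86e-09). For Adar no pair of neighbours in the order of the 7 lines was separated, and for Eif2ak2 the step from PIC144-1 to PIC496-3 was the only one (adjusted p = 0.0122).

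Between the PIC144 and the PIC496 lines, Zcchc3 ran the other way. PIC496-4 at 0.829 FPKM stood above PIC144-3 at 0.105 FPKM (limma adjusted p = 6.80e-06), and PIC496-3 above PIC496-4 (adjusted p = 0.00129), while the PIC144 lines were not separated (adjusted p = 0.988). The step from PC326-1 down to PIC496-3 was also separated (adjusted p = 8.50e-08). So the lines with the least Zcchc3 were those with the most Tlr3 and Ddx58 among IDH1 mutant lines.

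Among the IDH1 WT lines PC134-0 had the highest level of all 9 members, a position it held for 29.1% of all genes tested, and it was the highest of the 7 lines for 6 members against 13.2% of genes. The step to its neighbour was separated for Oasl1 (2.65 against 0.654 FPKM in PC326-1, limma adjusted p = 9.55e-07) and for Tlr3 (24.2 against 18.02 FPKM in PC308-1, adjusted p = 0.00841). It was not separated for Mavs or Zcchc3, whose neighbours were also IDH1 WT lines. For Ddx58 the neighbour was the IDH1 mutant line PIC144-3 (4.89 against 4.76 FPKM, limma adjusted p = 0.886). The next IDH1 WT line for Ddx58 was PC326-1 at 3.29 FPKM, a pair not compared alone. The F test over the 3 IDH1 WT lines gave Ddx58 a limma adjusted p of 1.40e-05. PIC496-4 was the lowest of the 7 lines for 6 members, against 22.4% of genes. For Mavs the separated neighbours were PIC496-4 and PIC144-3 (13.7 against 11.3 FPKM, adjusted p = 0.00320) and PC326-1 and PC308-1 (17.03 against 15.01 FPKM, adjusted p = 0.0400).

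**Figure D3:**
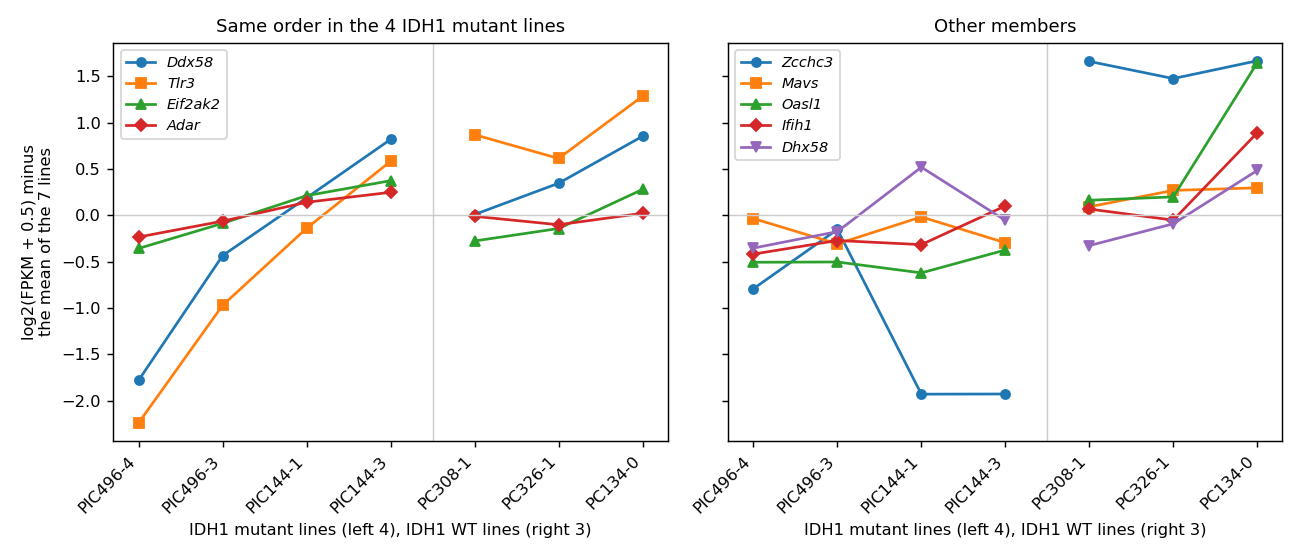
Line means on the log2(FPKM + 0.5) scale, with the mean of the 7 lines of each gene set to 0 (vertical axis), by cell line (horizontal axis, IDH1 mutant left of the grey line and IDH1 WT right of it). The left panel holds the 4 genes that share an order among the IDH1 mutant lines, and the right panel the other 5. Tlr3 and Ddx58 climb from PIC496-4 to PIC144-3, where Zcchc3 rises from PIC496-4 to PIC496-3 and then drops to the PIC144 lines.

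Correlations over the 7 line means describe the same patterns. They share lines and genotypes between points and are given without a test. Of the 36 pairs of members, Ifih1 and Oasl1 had a Pearson r of 0.94 (Spearman rho 0.82), which was 0.64 without the 2 lines farthest from the median. Ddx58 and Tlr3 had an r of 0.92 (rho 0.75, 0.66 without 2 lines), and of 0.97 once the genotype means were removed. Eif2ak2 and Adar had an r of 0.86 (rho 0.86, 0.85 without 2 lines). Zcchc3 and Tlr3 had an r of 0.46 over the lines, but -0.67 with the genotype means removed.

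The genes most like each member were ranked by Pearson r of log2(FPKM + 0.5) over the 7 lines, among the genes tested. Symbols of Gm plus a number, Rik symbols, and clone and pseudogene symbols were left out of this ranking. Ddx58 was closest to Lrrc1 (r = 0.99), Foxj2 and Gnb5. Tlr3 was closest to Parp12 (r = 0.98), Pdxdc1 and Ccdc66. Mavs was closest to Derl1 (r = 0.99), Mtrf1 and Ppp1r15a, and Zcchc3 to Pcdhgb6 (r = 0.98), Casc4 and Sugt1, where Pcdhgb6 shares exons with other genes of its cluster and its count is uncertain. Eif2ak2 was closest to Rhno1 (r = 0.99), Tcf19 and Adprm, Adar to Mon1a (r = 0.97), Gca and Vmac, and Oasl1 to Mx2 (r = 0.98), Arl8b and Id1. Among all genes tested, with no symbol left out, an r of at least 0.95 was reached by 51 genes for Ddx58, 41 for Tlr3 and 22 for Mavs. It was reached by 12 for Zcchc3, 8 for Adar, 3 for Oasl1 and 1 for Eif2ak2.

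The partners of these sensors did not pass the genotype comparison either. Of 20 cofactors and regulators of the RIG-I-like receptors, 16 were tested and 0 passed. At an unadjusted limma p under 0.05, 3 were higher and 3 lower in IDH1 mutant lines. Over all 13379 genes tested, 815 were higher and 897 lower at that p, which is the background for each list below as well. The median log2 difference of the 16 was 0.16 against 0.0072 for all genes. Trim25, the ubiquitin ligase that activates RIG-I, measured 4.55 ± 3.13 FPKM in IDH1 mutant (n = 4) and 11.3 ± 3.01 FPKM in IDH1 WT lines (n = 3; log2 difference -1.45, limma adjusted p = 0.351). Zc3hav1, the zinc finger antiviral protein, measured 8.87 ± 2.28 and 13.8 ± 0.495 FPKM (log2 difference -0.65, limma adjusted p = 0.342). Both lay lower in the IDH1 mutant lines without passing.

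Downstream of MAVS, 24 of 27 adaptor, kinase and factor genes were tested and 0 passed, with 1 at an unadjusted p under 0.05 and a median of 0.12. That gene was Tank, a TBK1 binding protein, at 3.71 ± 0.446 FPKM in IDH1 mutant and 2.25 ± 0.986 FPKM in IDH1 WT lines (log2 difference 0.66, limma adjusted p = 0.361). Next by p came Tomm70a, a mitochondrial import receptor that binds MAVS (0.44, adjusted p = 0.430). Tbk1 itself measured 7.57 ± 1.14 and 7.17 ± 0.361 FPKM and Irf3 6.06 ± 1.37 and 4.83 ± 0.536 FPKM, named here as the direct next steps after their values were seen.

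On the route of TLR3, 7 of 11 genes were tested, 0 passed, 1 was higher and 1 lower at an unadjusted p under 0.05, and the median was -0.07. Wdfy1, which links TLR3 to TICAM1, measured 8.91 ± 0.887 FPKM in IDH1 mutant and 6.19 ± 0.204 FPKM in IDH1 WT lines (log2 difference 0.49, limma adjusted p = 0.278). Ctsb, a protease of the endosome and lysosome, measured 31.7 ± 4.74 and 40.6 ± 2.55 FPKM (-0.36, adjusted p = 0.379). Ticam1, the adaptor of TLR3, measured 5.71 ± 1.47 and 5.92 ± 0.620 FPKM and was named after its values were seen.

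Around PKR, all 10 genes of its route were tested, 0 passed and 2 were lower at an unadjusted p under 0.05, with a median of -0.04. Ppp1r15a, which brings the phosphatase that reverses PKR's mark on eIF2alpha, measured 8.25 ± 2.46 FPKM in IDH1 mutant and 17.3 ± 3.62 FPKM in IDH1 WT lines (log2 difference -1.05, limma unadjusted p = 0.00360, adjusted p = 0.251). Ddit3, a factor induced by phosphorylated eIF2alpha, measured 24.7 ± 6.48 and 39.2 ± 10.6 FPKM (-0.65, adjusted p = 0.376). Eif2ak2 itself was at 0.08.

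Of 10 genes of the oligoadenylate synthetases and RNase L, only 2 reached the filter, Pde12, which degrades oligoadenylate (log2 difference 0.57, limma adjusted p = 0.488), and Abce1, an inhibitor of RNase L (0.33, adjusted p = 0.540). Of 23 other proteins that bind, edit or process double-stranded RNA, 20 were tested, 0 passed, and the median was 0.19. At an unadjusted limma p under 0.05, 4 were higher, against 815 of all 13379 genes tested. The 2 with the smallest p were the RNA helicase Ddx21, at 56.1 ± 20.7 FPKM in IDH1 mutant and 29.1 ± 3.83 FPKM in IDH1 WT lines (0.87, adjusted p = 0.318), and Ilf2, a subunit of the NF90 complex, at 12.2 ± 0.923 and 9.40 ± 0.493 FPKM (0.36, adjusted p = 0.335).

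Of 17 interferon ligands, receptors and ISGF3 genes, 9 were tested, 0 passed, 1 was lower at an unadjusted p under 0.05, and the median was -0.11. Ifna1, Ifna2, Ifna4, Ifna5, Ifnl2 and Ifnl3 were at 0 in all 21 libraries, and Ifnb1 was above 0 only in PC134-0, at 0.0263 FPKM. Ifnar2, a chain of the interferon receptor, measured 5.25 ± 0.501 FPKM in IDH1 mutant and 6.81 ± 0.407 FPKM in IDH1 WT lines (-0.35, limma adjusted p = 0.373). Irf9, the DNA-binding part of ISGF3, measured 1.44 ± 0.594 and 2.22 ± 1.25 FPKM (-0.45, adjusted p = 0.604).

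**Figure D4:**
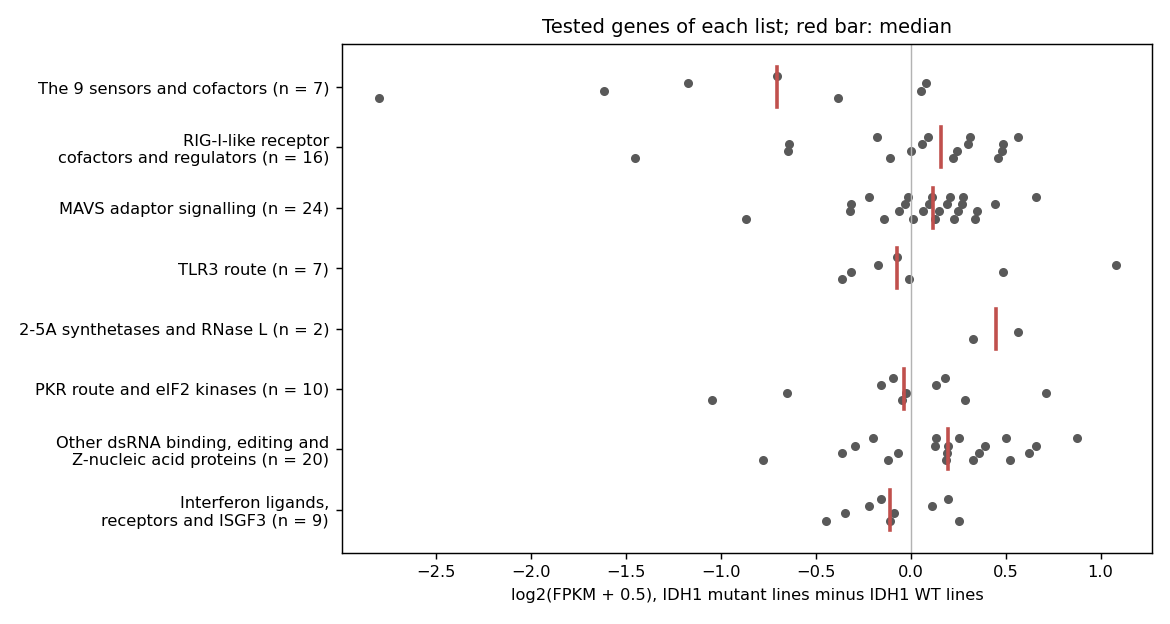
Differences of log2(FPKM + 0.5), IDH1 mutant minus IDH1 WT lines (horizontal axis), for the genes tested in each list (rows, with the number tested). Grey points are genes and red bars are medians, which run from -0.70 for the 7 sensors and cofactors tested to 0.45 for the 2 genes tested of the oligoadenylate synthetase and RNase L list.

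Zcchc3 had the largest difference of the members, so its neighbours on chromosome 2 were listed. Within 500 kb, 16 other genes were tested, 13 had a negative log2 difference against 49.2% of all genes, and their median was -0.36. 4 of them, Sox12, Gm27343, Id1 and Cox4i2, had all IDH1 mutant lines below all IDH1 WT lines, against 6.43% of all genes tested. None lay the other way, against 6.82% of all genes tested. 2 of the 16 passed the fit over all genes, Cox4i2 and Gm27343 (limma adjusted p = 0.0117 for each), against 0.12% of all genes tested. Gm27343 entered the fit only through its IDH1 WT lines, so it had to differ, and its place in each of these counts is given as a description.

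Cox4i2 encodes an isoform of a cytochrome c oxidase subunit and lies 342.2 kb from Zcchc3 by gene start. It measured 0.0488, 0.250, 0.255 and 0.677 FPKM in PIC144-1, PIC144-3, PIC496-3 and PIC496-4 and 11.1, 10.9 and 6.34 FPKM in PC134-0, PC308-1 and PC326-1. Gm27343 is a 63-base small nuclear RNA gene (chromosome 2 from 152417262 to 152417324, plus strand), 2235 bases beyond the end of Zcchc3 that holds its start. It had 0 fragments in all 12 IDH1 mutant libraries and 15, 7 and 10 fragments in PC134-0, PC308-1 and PC326-1, which are few counts for a level. Sox12, a transcription factor gene that is the nearest protein-coding gene tested, measured 10.2 to 23.5 FPKM in IDH1 mutant and 24.9 to 27.1 FPKM in IDH1 WT lines (log2 difference -0.82, limma adjusted p = 0.344). The difference at Sox12 was smaller than that at Zcchc3, and whether the DNA of this region differs between the lines was not measured.

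**Figure D5:**
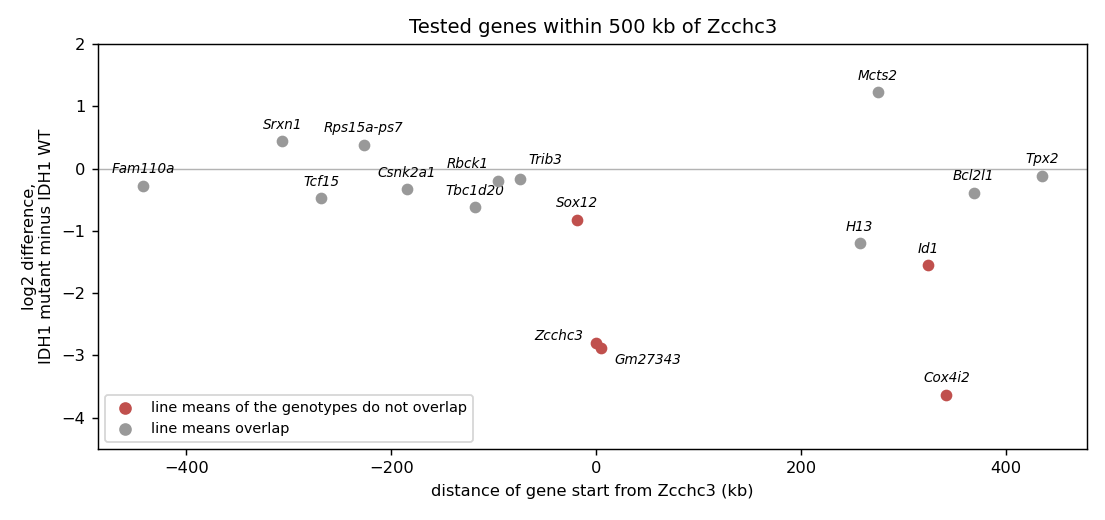
Log2 difference between IDH1 mutant and IDH1 WT lines (vertical axis) of the genes tested within 500 kb of Zcchc3, by distance of gene start in kb (horizontal axis). Red points are genes whose line means do not overlap between the genotypes and grey points those whose line means do. Zcchc3, Gm27343 and Cox4i2 lie below -2, and Mcts2 is highest at 1.22.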

How the data were processed

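Messenger RNA of 21 libraries was measured. PolyA RNA was selected and strand-specific libraries were read as pairs of 150 bases, per the labels' protocols. Per the submitters' processing notes, HISAT2 and the build mm39 were used. For the counter, the annotation and whether counting used strand: not given in the sources used here. FPKM of 54532 genes and the length of each gene were deposited by the authors. The coordinates are those of GRCm38: 54495 IDs were found in GENCODE M21 and 53548 had the same position. The FPKM give whole fragments (100% of values under 1000 fragments, within 0.05). Chi-square per gene between libraries of a line was 3.79 to 26.9, so none was a duplicate within sampling noise. The 2 largest values, 26.9 and 22.8, set replicate 2 of PIC496-4 against replicates 1 and 3, which had 4.17 between them. With replicate 2 of every line left out, the log2 difference was -2.75 for Zcchc3 and -1.70 for Tlr3.

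Line means of FPKM (3 libraries) were compared as log2(FPKM + 0.5) in R 4.3.3 with limma 3.58.1 (trend and robust), over 13379 genes at 0.5 FPKM or more in at least 3 of 7 lines, with Benjamini-Hochberg adjustment over all of them at 0.05. Single values were tested by exact permutation of the lines, two-sided, over 35 splits (scipy 1.17.1). The labels call the libraries biological replicates but name no separate animals, so p-values measure the spread between lines or libraries only. Lines were compared within a genotype by limma F tests over libraries. The genotype fit was run on simulated line means, with 200 changed genes of 13379, in 10 runs. It recovered 39.4%, 81.2% and 92.9% of log2 changes of 1, 2 and 3, with 7.2 false calls per run. Genes were drawn independently of each other there, which real lines need not follow. A gene that did not pass may therefore still differ. Alternatives covered the pseudocount, filter, scaling, tool, pairing, and lines or libraries left out. All 9 members are named. Of other lists the 2 genes with the smallest p are named where none passed, of markers the most abundant, and for likeness the 3 ranked symbols with the highest r. Members and lists were chosen with earlier results of these data known.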

Additional observations from a re-analysis of the deposited data

How the results depend on the processing

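The number of genes called between the genotypes moved with most choices. It was 16 in the main comparison, 3 with no filter, 8 with a filter of 2 FPKM, 0 with limma voom on recovered fragments, 4 with lines that share a number averaged, and 4 without both PIC496 lines. Leaving out 1 line gave 0 (PC134-0 or PC326-1) to 29 genes (PC308-1), with 5, 9 and 10 without PIC496-4, PIC144-1 and PIC496-3. With the same genes tested, which was chosen after seeing the data, it gave 1 (without PC134-0) to 48 (without PC308-1). No member was called in 26 of 29 alternatives. Without both PIC496 lines 1 was called (Zcchc3), a description only, since it entered that fit through its IDH1 WT lines alone. A fit over 21 libraries with the line as a random effect called 552 genes and 3 members (Zcchc3, Tlr3 and Oasl1). With a replicate block it called 440 genes and 2 members (Zcchc3 and Tlr3). Both versions took 1 correlation within lines for all genes (0.820 and 0.836), which understates the spread of genes whose lines differ more. For Tlr3 the SE was 0.416 and 0.437, against 0.602 on line means. The call of Oasl1 is a description only, since it entered through its IDH1 WT lines alone. Same-numbered libraries of different lines had correlations of -0.124 to 0.292 (median 0.015), and different-numbered ones -0.277 to 0.207 (median -0.011). An r over 0.1 occurred in 14 of 63 same-numbered and in 10 of 126 different-numbered pairs. 12 of 21 libraries correlated best with their own number. These values do not settle whether the numbers pair the libraries. The main fits did not use the numbers. The block changed no member's call between lines of a genotype.

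The differences of Zcchc3, Mavs, Tlr3 and Oasl1 kept their sign in every alternative that tested them, at -4.20 to -2.28, -0.45 to -0.34, -2.04 to -0.70 and -2.27 to -0.68. Oasl1 was not tested with the filter of 2 FPKM, nor without an IDH1 WT line unless the same genes were kept. The signs that turned were those of Ddx58 without both PIC496 lines (0.10, against -0.70 with all lines and -0.21 without PIC496-4), Eif2ak2 without PIC144-3 (-0.031) or PC308-1 (-0.033), and Adar without PIC144-3 (-0.022) or on the TPM scale (-0.0017). Leaving out 1 line gave -0.033 to 0.245 for Eif2ak2 and -0.022 to 0.139 for Adar. The cause was not tested. TPM scaling moved the median of all genes to -0.05. Few fragments per line limit Ifih1 (11 to 332), Dhx58 (13 to 90), Oasl1 (20 to 352) and Zcchc3 in the PIC144 lines (16 and 19).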

Other observations

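Interferon-stimulated genes outside the sensors were also highest in PC134-0. Usp18, which restrains interferon receptor signalling, measured 2.81 FPKM there against 0.436 and 0.533 FPKM in PC308-1 and PC326-1 and 0.0644 to 0.353 FPKM in the IDH1 mutant lines. Oasl2 measured 2.01 FPKM in PC134-0 and 0.0244 to 0.401 FPKM in the other 6 lines, and Irf7 1.41 FPKM against 0.122 to 0.290 FPKM. All 3 were below the filter and have no test.

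Casp8, a protease recruited downstream of MAVS and TLR3, had the same order among the IDH1 mutant lines as Ddx58 and Tlr3, at 11.1 FPKM in PIC144-3, 2.45 in PIC144-1, 0.563 in PIC496-3 and 0.123 in PIC496-4. Its log2 difference between the genotypes was -0.87 with a limma interval of -3.15 to 1.42. Unc93b1, which brings TLR3 to endosomes, stood at 3.65 FPKM in PC308-1 and at 0.0640 to 0.851 FPKM in the other 6 lines. These genes were picked after their values were seen, and the lines they single out are described without a test.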
